A study of Mus musculus with 49 samples.

Results

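CD8+ T cells whose STAT5B could not be phosphorylated on its activating tyrosine (*Stat5b* KI) were compared with CD8+ T cells whose STAT5A could not (*Stat5a* KI), both after 48 hr with 500 IU/ml IL-2. The comparison used 6 of the 49 samples of the series, 3 RNA-seq libraries for each KI, taken by treatment group and not by any measured value. *Stat5a* KI mice were homozygous for Y694F in *Stat5a* and kept a normal *Stat5b*, and *Stat5b* KI mice were homozygous for Y699F in *Stat5b* and kept a normal *Stat5a*. Each line had its own WT littermates, and the 3 WT libraries of each line at 48 hr served only as a background for differences between the lines, which gave 12 libraries in 4 groups. Libraries of the same lines and genotypes at 0 hr, before culture and without IL-2, were used later in a fit of 24 libraries. Both lines came from Cas9 injection of B6D2F1 zygotes with a guide and a donor oligonucleotide, were backcrossed for 6 generations, and are listed as C57BL/6J, so that a KI and its line cannot be told apart without the WT background. The cells were isolated with a kit from spleens of mice 8 to 24 weeks old and were put directly into culture with recombinant human IL-2. Mice of both sexes were used in the study. In the 12 libraries at 48 hr the 4 Y-linked genes examined reached at most 0.0295 RPKM. *Xist*, an RNA of female cells, stood at 49.1 to 65.4 RPKM in all 12, the pattern of cells from females. The labels do not say whether the 3 libraries of a group came from separate mice, so p-values measure only the spread between these samples.

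IL-2 is a growth factor of T cells that is bound by IL2RA, IL2RB, and the common gamma chain IL2RG. The kinases JAK1 and JAK3 of this receptor phosphorylate STAT5A and STAT5B, closely related transcription factors encoded by neighbouring genes, each on a single tyrosine near its C terminus. The phosphorylated proteins pair through their SH2 domains, enter the nucleus, and bind sites of the form TTCNNNGAA, called GAS motifs, in genes that control feedback, survival, division, and cytotoxic function of CD8+ T cells.

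The alleles are shown around the tyrosine codon because they are what separates the groups. Both tyrosine codons lie in coding exon 16 of 18, *Stat5a* on the plus strand of chromosome 11 and *Stat5b* on its minus strand. On GRCm38 (RefSeq, GRCm38.p6) the *Stat5a* codon is at chr11:100881755-100881757 and the *Stat5b* codon at chr11:100784285-100784287, and the 33 bases shown for each gene run from the first base of the guide (chr11:100881731-100881763 and chr11:100784279-100784311). In each pair the reference sequence has the tyrosine codon in capitals and the donor has its changed bases in capitals, read from 5′ to 3′ along the gene.
*Stat5a* reference: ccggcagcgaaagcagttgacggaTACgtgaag
*Stat5a* Y694F donor: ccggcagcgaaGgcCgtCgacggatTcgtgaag
*Stat5b* reference: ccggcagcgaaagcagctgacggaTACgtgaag
*Stat5b* Y699F donor: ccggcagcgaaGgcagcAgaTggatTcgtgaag
In both stretches 4 bases in 4 codons were changed, of which 3 codons kept their amino acid. The 20-base guides at the start of these stretches differed from each other by T17C, counted from the 5′ end of the *Stat5a* guide, and 13 of their 20 bases lay in the coding exon.

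Reads on the longest transcript of each gene numbered 39.2 to 56.4 M per library at 48 hr, and 13814 of 23992 gene symbols had enough reads to be tested. A count of 3, taken as the lowest level that a library can show, corresponded to 0.0532 to 0.0766 CPM, counts scaled to library size, which covers counting error only. Levels are given as RPKM, reads scaled to the length of the transcript and to the mapped reads of the library, in libraries 1, 2, and 3 of a group, and differences as log2 fold changes of *Stat5b* KI over *Stat5a* KI with their standard error and the Benjamini-Hochberg adjusted p of edgeR's quasi-likelihood test. A gene was called when the adjusted p was at most 0.05 and the fold change at least 2. The mRNA of the mutated genes themselves was similar in the groups. *Stat5a* stood at 20.9, 21.6, and 21.1 RPKM in *Stat5a* KI and at 22.2, 21.0, and 18.4 in *Stat5b* KI (-0.11 ± 0.05, adjusted p = 0.12). *Stat5b* stood at 28.5, 30.3, and 29.6 RPKM in *Stat5a* KI and at 33.2, 31.5, and 28.6 in *Stat5b* KI (0.02 ± 0.05, adjusted p = 0.79). Since the alleles change single bases, these levels do not check the labels.

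Of the 13814 genes, 731 (5.29%) were called, 623 (4.51%) of them higher in *Stat5b* KI than in *Stat5a* KI and the rest (0.782%) lower. In WT cells of the same lines 3 genes (0.0217%) were called, 2 (0.0145%) lower and 1 (0.00724%) higher, by the same test, with 1618 genes at an unadjusted p under 0.05. The WT count was 97 lower and 19 higher without replicate 3 of the *Stat5a* line WT, and 45 in all with DESeq2. The DESeq2 run began with the 19323 genes that had any read, as many as edgeR with no filter on low counts, which called 35. DESeq2 then applied its own default filter on mean count, so the number of genes given an adjusted p can be smaller. The genes called higher were mostly weakly expressed. Their median level in the higher KI was 0.338 RPKM, and 462 of 623 (74.2%) stayed below 1 RPKM, against a median of 0.971 RPKM and 55 genes (50.9%) below 1 RPKM for the genes called lower. Among the 8025 genes with a mean of at least 5 RPKM in a KI group, 28 (0.349%) were called lower and 38 (0.474%) higher. When only the adjusted p was used, the balance was the other way, with 3055 of these 8025 genes (38.1%) lower and 826 (10.3%) higher in *Stat5b* KI. Most differences in expressed genes were thus smaller than 2-fold. In a fit of only the 6 KI libraries, whose scaling does not use WT cells, this split was 2123 lower and 1109 higher. The share of all mapped reads that fell on the longest transcripts was 77.7 to 80.6% in the *Stat5a* KI libraries and 72.6 to 78.5% in the *Stat5b* KI libraries, and its part in the result was not tested. In bulk RNA, fewer cells of a type and less RNA per cell cannot be told apart.

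**Figure D1:**
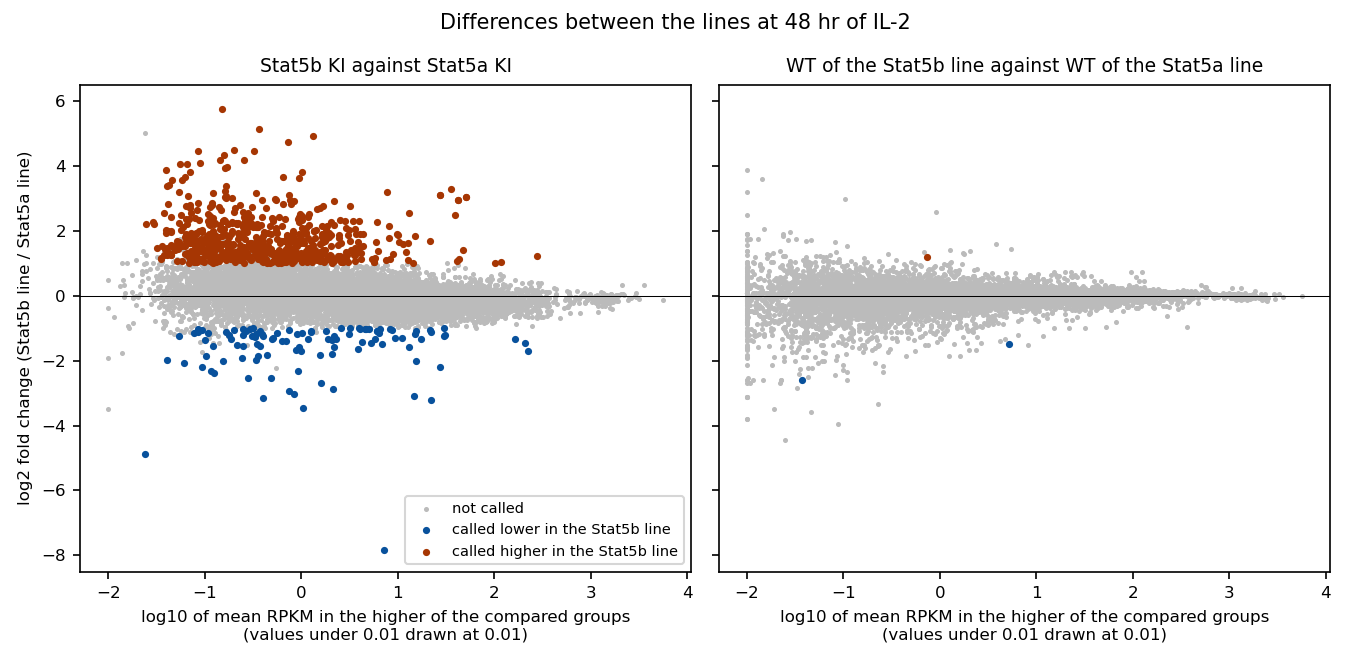
Each point is a gene, with the log10 of its mean RPKM in the higher of the compared groups on the x axis and its log2 fold change between the lines on the y axis, for KI cells (left) and WT cells (right) at 48 hr, 3 libraries a group. Of the genes tested, 731 were called in the KI contrast and 3 in the WT contrast (97 lower and 19 higher without replicate 3 of the *Stat5a* line WT), and the genes called higher lie mainly at low RPKM.

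Several feedback and survival genes downstream of STAT5 were lower in *Stat5b* KI. Of 21 tested feedback and survival genes, 4 were called lower and 0 higher, 14 were lower and 2 higher at an adjusted p of at most 0.05 (26.2% and 14.7% of all genes, 40.9% in all), and their median log2 fold change was -0.48, against -0.03 over all genes and 0.00 for the same list in WT cells. The list was chosen with earlier results of these data known. The study names its members *Cish*, *Socs2*, *Cdk6*, *Lif*, *Lta*, and *Osm* as lower in KI cells, from samples that include the present ones. These counts are therefore not independent evidence of a direction. *Cish*, which encodes a SOCS-family inhibitor of cytokine signalling, stood at 26.9, 19.4, and 19.6 RPKM in *Stat5a* KI and at 10.3, 12.3, and 8.70 in *Stat5b* KI (-1.13 ± 0.12, adjusted p = 1.3e-05). All 6 KI libraries lay below the 48.8 to 59.4 RPKM of the 6 WT libraries, and the KI groups did not overlap. Groups without overlap were common, at 50.5% of all genes tested in the KI contrast and 17.3% in the WT contrast. Without replicate 1 of *Stat5a* KI the difference in *Cish* was -0.98, just under the 2-fold threshold. *Osm*, the gene of the cytokine oncostatin M, stood at 16.5, 17.9, and 17.8 RPKM in *Stat5a* KI and at 7.07, 8.27, and 6.13 in *Stat5b* KI (-1.34 ± 0.09, adjusted p = 7.8e-07). *Lif*, which encodes a cytokine of the same family, stood at 4.69, 4.00, and 4.06 RPKM against 1.42, 2.07, and 1.39 (-1.44 ± 0.17, adjusted p = 3.1e-05). For both cytokine genes the *Stat5b* KI libraries were the lowest of the 12, with WT levels of 28.8 to 33.5 RPKM for *Osm* and 23.3 to 36.9 RPKM for *Lif*.

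The survival gene *Bcl2l1*, which encodes BCL-XL, stood at 23.2, 21.5, and 20.0 RPKM in *Stat5a* KI and at 10.6, 12.8, and 9.11 in *Stat5b* KI (-1.05 ± 0.10, adjusted p = 6.1e-06). *Stat5a* KI thus lay between *Stat5b* KI and the WT libraries, at 27.5 to 33.6 RPKM, without overlap. The *Bcl2l1* difference fell just short of 2-fold, at -0.96 to -0.9999, when replicate 3 of *Stat5b* KI, replicate 2 of the *Stat5a* line WT or replicate 2 of the *Stat5b* line WT was left out. Among 16 tested BCL2 family genes *Bcl2l1* was the 1 called, with 6 lower and 2 higher at the adjusted p and a median of -0.03. Members of the feedback list below 2-fold, chosen after their values were seen, were *Bcl2* (-0.64 ± 0.07, adjusted p = 1.35e-05), *Pim1*, a survival kinase (-0.48 ± 0.05, adjusted p = 1.3e-05), and *Lta*, the gene of lymphotoxin alpha (-0.82 ± 0.08, adjusted p = 6.8e-06). Of 22 genes that the study's text names as examples of genes with STAT5 binding and reduced expression in KI cells, 5 were called lower and 0 higher, 17 were lower and 0 higher at the adjusted p, and the median was -0.68 in KI cells and 0.07 in WT cells. The study chose these genes for lower expression in samples that include the present ones, so they are not independent evidence of a direction. *Slc30a4*, a zinc transporter gene on that list, stood at 9.79, 14.8, and 14.7 RPKM in *Stat5a* KI and at 3.94, 4.79, and 4.79 in *Stat5b* KI (-1.59 ± 0.16, adjusted p = 1.4e-05). *Stat5a* KI overlapped the 12.8 to 19.6 RPKM of WT cells, and *Stat5b* KI lay below them.

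**Figure D2:**
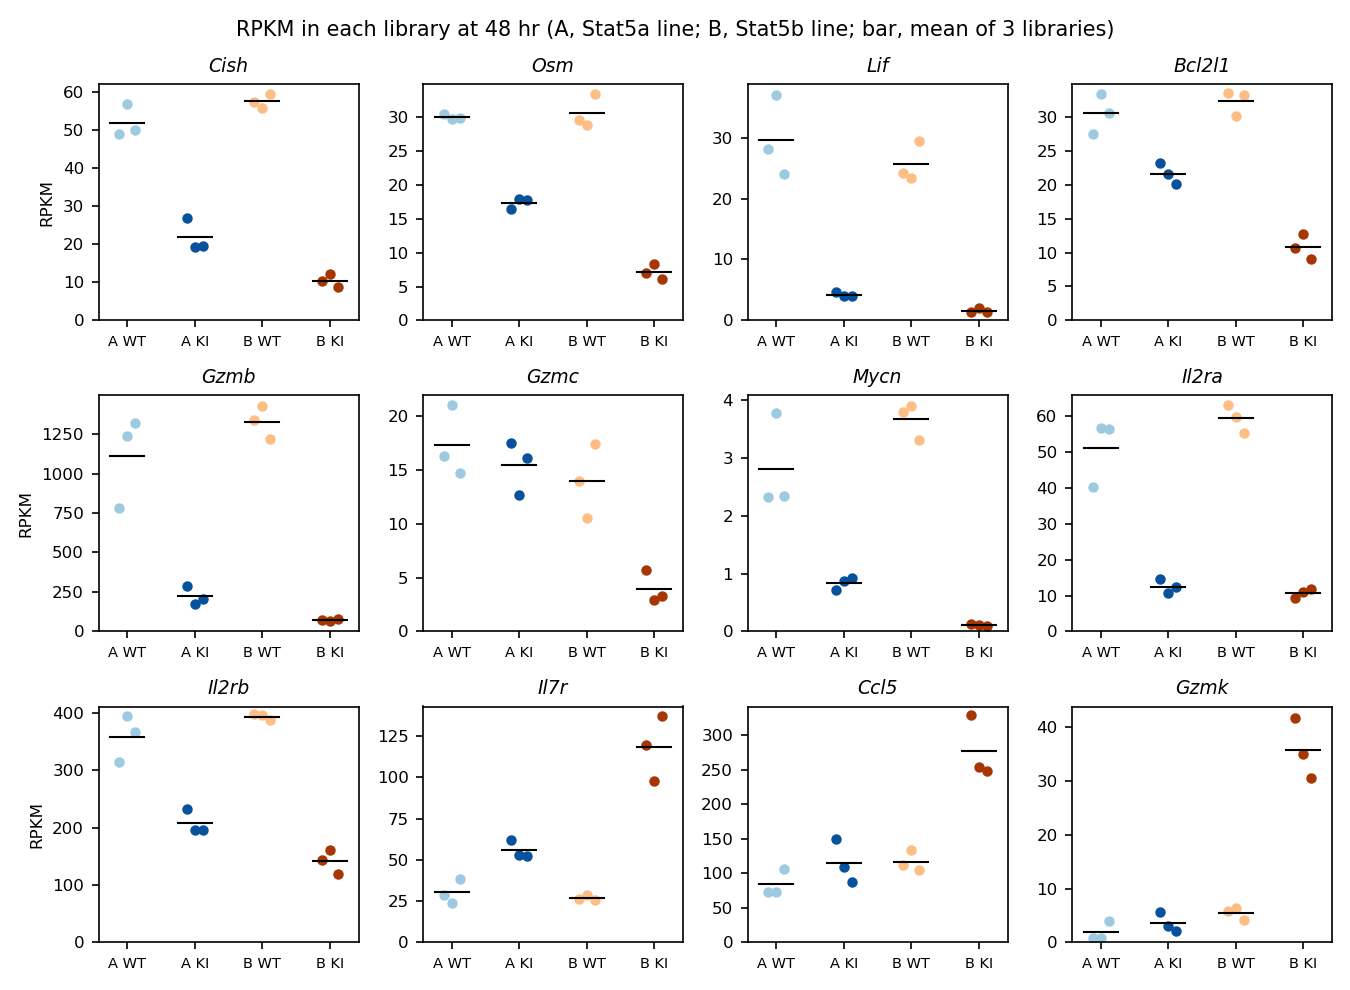
RPKM of 12 genes in each of the 12 libraries at 48 hr (y axis), by line and genotype (x axis; A is the *Stat5a* line, B the *Stat5b* line), with a point for each library and a bar at the mean of 3 libraries. *Cish*, *Osm*, *Lif*, *Bcl2l1*, *Gzmb*, *Gzmc*, and *Mycn* were lowest in *Stat5b* KI, *Il7r*, *Ccl5*, and *Gzmk* were highest there, and *Il2ra* overlapped between the KI groups.

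The genes of the receptor chains through which IL-2 acts differed by less than 2-fold. *Il2ra*, the gene of the high-affinity IL-2 receptor chain, stood at 14.5, 10.6, and 12.3 RPKM in *Stat5a* KI and at 9.21, 11.1, and 11.9 in *Stat5b* KI (-0.26 ± 0.14, adjusted p = 0.14). These groups overlapped, and all 6 libraries lay below the 40.1 to 63.0 RPKM of the WT libraries. *Il2rb*, which encodes the signalling chain shared by the IL-2 and IL-15 receptors, stood at 233, 196, and 196 RPKM in *Stat5a* KI and at 143.9, 160.9, and 119.5 in *Stat5b* KI (-0.62 ± 0.09, adjusted p = 0.00018). It did not overlap between the KI groups, but the difference was under 2-fold. *Il2rg* (-0.31 ± 0.06, adjusted p = 0.0015), *Il4ra* (-0.31 ± 0.08, adjusted p = 0.0086), and *Il21r* (-0.22 ± 0.07, adjusted p = 0.020) were also lower by less than 2-fold, and *Il15ra* was at 0.14 ± 0.09 (adjusted p = 0.21). Of the 8 genes of this family 2 were called, both higher in *Stat5b* KI.

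The called genes were *Il7r* and *Il9r*. *Il7r*, whose product supports resting and memory T cells and which is known to be repressed by IL-2, stood at 62.2, 52.8, and 52.5 RPKM in *Stat5a* KI and at 119.6, 98.1, and 137.3 in *Stat5b* KI (1.03 ± 0.15, adjusted p = 0.00014). The WT libraries stood at 24.1 to 38.7 RPKM, below both KI groups. The *Il7r* difference was 0.89 without replicate 3 of *Stat5b* KI. *Il9r* rose from 0.308, 0.295, and 0.242 RPKM in *Stat5a* KI to 0.944, 0.917, and 1.00 in *Stat5b* KI (1.71 ± 0.20, adjusted p = 2.9e-05), with WT libraries at 0.0167 to 0.0615 RPKM. Of 17 other cytokine receptor genes tested, 1 was called lower and 0 higher, with 2 lower and 2 higher at the adjusted p and a median of -0.04. The called gene was *Il12rb2*, a subunit of the IL-12 receptor, at 9.48, 7.16, and 8.04 RPKM in *Stat5a* KI and 4.52, 3.65, and 4.49 in *Stat5b* KI (-1.02 ± 0.12, adjusted p = 2.8e-05), where the WT libraries stood at 19.6 to 26.4 RPKM. Its difference lay at -0.89 to -0.99 when replicate 1 of *Stat5a* KI, replicate 2 of *Stat5b* KI or replicate 1 or 2 of the *Stat5a* line WT or 2 or 3 of the *Stat5b* line WT was left out. None of 11 JAK and STAT genes was called, with 2 lower and 3 higher at the adjusted p and a median of -0.08.

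Granzyme genes, which encode proteases of the cytotoxic granule, moved in opposite directions. *Gzmb* stood at 286, 176, and 204 RPKM in *Stat5a* KI and at 69.3, 68.6, and 75.5 in *Stat5b* KI (-1.69 ± 0.18, adjusted p = 1.5e-05), with 784 to 1426 RPKM in WT cells. *Gzmc* stood at 17.5, 12.7, and 16.2 RPKM in *Stat5a* KI, within the 10.5 to 21.0 RPKM of WT cells, and at 5.71, 2.95, and 3.30 in *Stat5b* KI (-2.02 ± 0.23, adjusted p = 2.5e-05). *Gzmg*, from the same gene cluster, was lower at trace levels, 0.228 to 0.349 RPKM against 0.0408 to 0.0598 (-2.55 ± 0.57, adjusted p = 0.0028), and reads of these close relatives may be shared. At these levels the size of its fold change is not exact. *Gzmk*, a granzyme gene typical of memory CD8+ T cells, went the other way, from 5.63, 2.96, and 2.10 RPKM in *Stat5a* KI to 41.8, 35.0, and 30.5 in *Stat5b* KI (3.28 ± 0.42, adjusted p = 5.6e-05). Part of the *Gzmk* difference was already present between the WT groups, at 0.881, 0.872, and 4.05 RPKM for the *Stat5a* line and 5.80, 6.40, and 4.19 for the *Stat5b* line (1.44, adjusted p = 0.20, or 2.62, adjusted p = 0.0013 without replicate 3 of the *Stat5a* line WT). Of 16 tested granule genes, 3 were called lower and 1 higher, with 5 and 2 at the adjusted p and a median of -0.07.

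Among 18 tested cytokine and chemokine ligand genes, 2 were called lower (*Lif* and *Osm*) and 2 higher (*Ccl5* and *Ccl9*), with 7 lower and 3 higher at the adjusted p and a median of -0.14. *Ccl5*, which encodes the chemokine RANTES made by effector and memory cells, stood at 150.2, 109.1, and 88.2 RPKM in *Stat5a* KI and at 329, 254, and 249 in *Stat5b* KI (1.21 ± 0.18, adjusted p = 0.00014). The WT groups lay at 72.4 to 106.4 RPKM and 104.3 to 133.5 RPKM, so the difference of the KI difference from the WT difference was 0.76 ± 0.25 (adjusted p = 0.034), under 2-fold. *Ccl9* rose from 0.799, 0.854, and 0.746 RPKM to 1.92, 2.59, and 2.74 (1.54 ± 0.18, adjusted p = 2.9e-05). The median of this list rested on single libraries, at -0.0045 without replicate 1 of *Stat5a* KI, -0.30 without replicate 2 of *Stat5a* KI, and -0.33 without replicate 1 of *Stat5b* KI.

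The genes of cell division were mostly lower in *Stat5b* KI, in nearly all cases by less than 2-fold. Of 50 tested DNA replication genes, 46 were lower and 0 higher at the adjusted p, with a median of -0.63, and of 48 mitosis and kinetochore genes 45 were lower and 2 higher, with a median of -0.64. The same lists had medians of 0.07 and 0.15 in WT cells. Called at 2-fold was 1 of the 50 replication genes and 0 of the 48 mitosis genes, against 0.782% of all genes called lower. *Orc1*, a subunit of the origin recognition complex that marks replication origins, stood at 4.93, 4.30, and 4.62 RPKM in *Stat5a* KI and at 2.63, 2.74, and 1.64 in *Stat5b* KI (-1.04 ± 0.13, adjusted p = 4.6e-05), below the 9.31 to 12.2 RPKM of WT cells. *Orc1* was at -0.86 to -0.99 without replicate 3 of *Stat5b* KI or replicate 2 of either WT group. *Mki67*, the proliferation marker, chosen after its values were seen, stood at 65.7, 57.4, and 66.4 RPKM against 37.2, 44.5, and 29.8 (-0.82 ± 0.10, adjusted p = 4.4e-05). The best expressed mitosis gene, *Smc4* of the condensin complex, went against the list (0.34 ± 0.10, adjusted p = 0.018).

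Cyclin and cyclin-dependent kinase genes followed the same direction, with 14 of 20 lower and 1 higher at the adjusted p, none called, and a median of -0.58. *Ccnd3*, the best expressed of them and a D-type cyclin, was at -0.43 ± 0.07 (adjusted p = 0.00049). In the E2F, DP, and RB family, the transcription factors and pocket proteins that gate S phase, 9 of 13 were lower and 2 higher, with none called and a median of -0.37, and *Tfdp1*, the DNA-binding partner of the E2F proteins, was at -0.74 ± 0.08 (adjusted p = 1.6e-05). Of 7 CDK inhibitors, 1 was called higher, with 1 lower and 2 higher at the adjusted p and a median of 0.05. It was *Cdkn2b*, at 0.149 to 0.336 RPKM in *Stat5a* KI and 0.325 to 0.626 in *Stat5b* KI (1.02 ± 0.39, adjusted p = 0.049), groups that overlapped, and the call was lost, at 0.73 to 1.07, without replicate 2 or 3 of *Stat5a* KI, 2 or 3 of *Stat5b* KI, or 1 or 3 of the *Stat5b* line WT. The call was also lost with replicate number as a block in the fit (0.98) and with 47 libraries in the fit (1.03).

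The MYC network held the steepest fall among the lists of genes. *Mycn*, a MYC paralog that is scarce in lymphocytes after early development, stood at 0.720, 0.873, and 0.929 RPKM in *Stat5a* KI and at 0.121, 0.112, and 0.0857 in *Stat5b* KI (-3.03 ± 0.26, adjusted p = 5.2e-06), against 2.32 to 3.89 RPKM in WT cells. *Myc* itself, chosen after its values were seen, was far more abundant, at 65.4, 67.7, and 67.7 RPKM in *Stat5a* KI and 45.4, 42.0, and 40.2 in *Stat5b* KI (-0.71 ± 0.05, adjusted p = 7.8e-07). Neither gene overlapped between the KI groups, which was also so for 50.5% of all genes tested. Of the 12 genes of the network, 1 was called lower, with 4 lower and 4 higher at the adjusted p and a median of -0.02.

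Most genes of 6 biosynthesis, glycolysis, and proteasome lists were lower in *Stat5b* KI, by less than 2-fold. Ribosome biogenesis genes were lower in 42 of 46 cases and higher in 0, with a median of -0.43, and aminoacyl-tRNA synthetase genes, which load tRNAs with amino acids, in 19 of 20 and 0, with a median of -0.46. Sterol and fatty acid synthesis genes were lower in 25 of 28 cases and higher in 0 (median -0.47), and proteasome genes in 35 of 37 and 0 (median -0.33). Purine and pyrimidine synthesis genes were lower in 18 of 23 cases and higher in 2 (median -0.47), and glycolysis and lactate genes in 15 of 20 and 0 (median -0.34). None of the genes of these 6 lists was called at 2-fold, and the medians of the lists in WT cells ran from 0.04 to 0.09. The best expressed members were *Npm1* of the nucleolus (-0.36 ± 0.09, adjusted p = 0.0074), the lysyl-tRNA synthetase gene *Kars* (-0.47 ± 0.05, adjusted p = 2.7e-05), the ATP citrate lyase gene *Acly* (-0.34 ± 0.06, adjusted p = 0.00040), *Psmb8* of the immunoproteasome (-0.35 ± 0.08, adjusted p = 0.0027), *Impdh2* of guanine nucleotide synthesis (-0.61 ± 0.07, adjusted p = 2.8e-05), and *Gapdh* (-0.55 ± 0.08, adjusted p = 0.00010). *Gapdh* stood at 675, 586, and 576 RPKM in *Stat5a* KI and at 439, 482, and 384 in *Stat5b* KI, without overlap.

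Of 18 serine, glycine, and one-carbon genes, 1 was called lower and 0 higher, with 12 lower and 0 higher at the adjusted p and a median of -0.51. The called gene was *Shmt1*, a serine hydroxymethyltransferase that feeds one-carbon units to nucleotide synthesis, at 16.2, 15.2, and 15.1 RPKM in *Stat5a* KI and 7.60, 8.83, and 6.07 in *Stat5b* KI (-1.10 ± 0.10, adjusted p = 5.6e-06), and at 33.3 to 42.0 RPKM in WT cells. Without replicate 3 of *Stat5b* KI it was at -0.99. Of 18 amino acid transporter genes, 1 was called lower and 1 higher, with 11 lower and 2 higher at the adjusted p and a median of -0.25. *Slc7a5*, which encodes the large neutral amino acid transporter LAT1, stood at 33.6, 28.0, and 28.9 RPKM against 16.3, 16.8, and 13.8 (-1.004 ± 0.09, adjusted p = 5.2e-06), with WT libraries at 69.7 to 99.6 RPKM. The groups did not overlap, but its fold change sat at the threshold and the call was lost, at -0.94 to -0.98, without replicate 1 of *Stat5a* KI, 3 of *Stat5b* KI, 1 or 2 of the *Stat5a* line WT, or 2 or 3 of the *Stat5b* line WT. It was also lost, at -0.91 to -0.998, with DESeq2 or its size factors, with 47 or only the 6 libraries in the fit, with the transcript of most reads, with limma, and when genes had to reach 1 RPKM in 3 or more libraries. *Slc7a8*, another transporter of neutral amino acids, was higher at trace levels, 0.127 to 0.443 RPKM against 0.490 to 0.750 (1.30 ± 0.33, adjusted p = 0.0067), or 0.98 without replicate 2 of *Stat5a* KI.

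**Figure D3:**
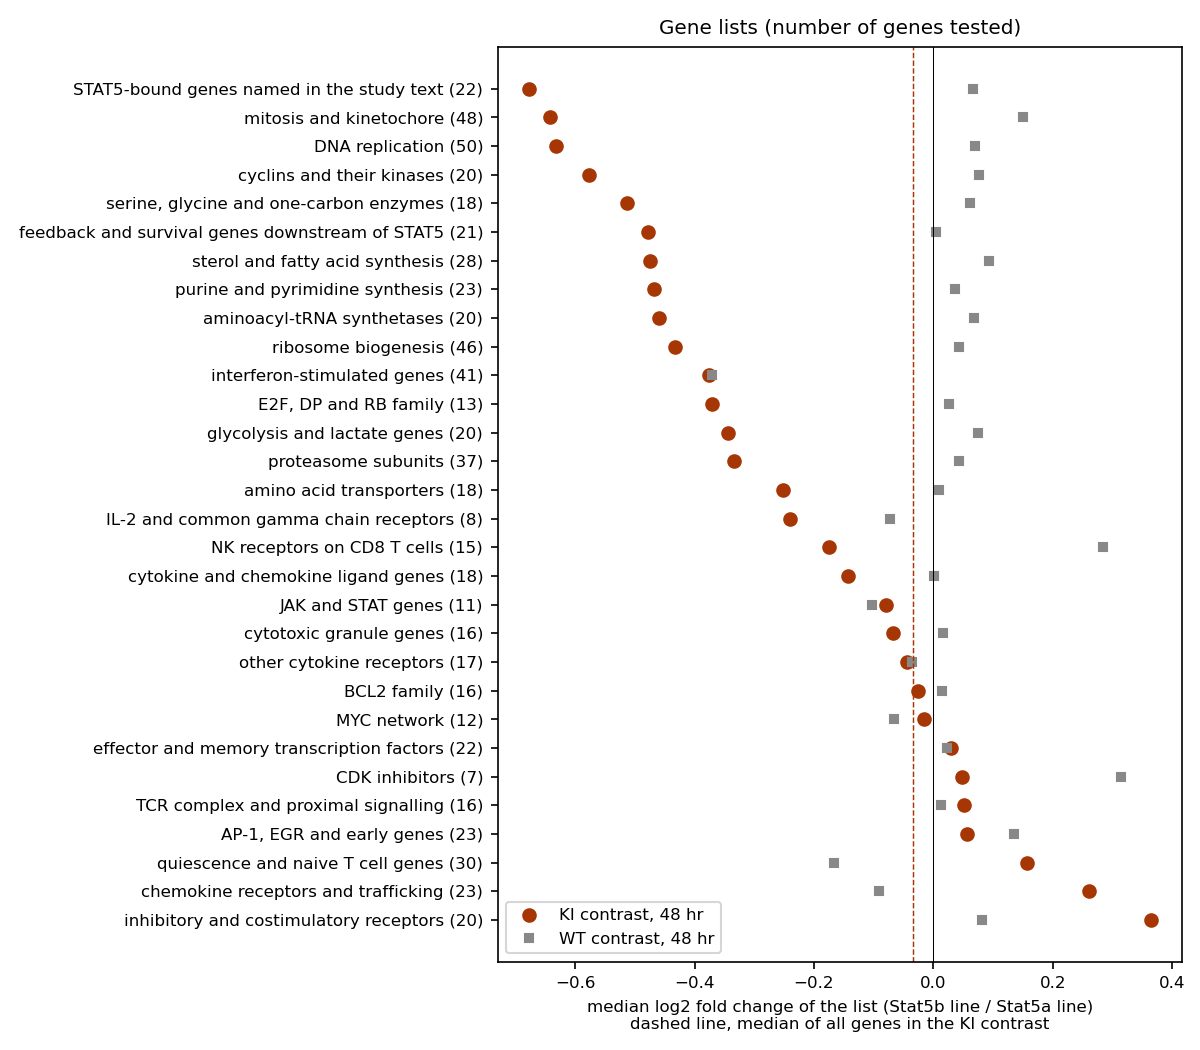
Median log2 fold change (x axis) of each of 30 gene lists (y axis, with the number of genes tested) in the KI contrast (circles) and in the WT contrast of the same lines (squares) at 48 hr. The lists of division and biosynthesis lie left of the median of all genes, -0.03, in the KI contrast and near 0 in the WT contrast, while interferon-stimulated genes lie at -0.38 and -0.37.

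Interferon-stimulated genes had about the same median difference between the lines in KI and in WT cells. Of 41 tested, 2 were called lower and 0 higher, and 23 were lower and 0 higher at the adjusted p, with a median of -0.38 in KI cells and -0.37 in WT cells, where 6 were lower (0.181% of all genes were lower there and 0.0290% higher, 0.210% in all). The median of the difference between these contrasts was 0.02. *Oasl2*, an oligoadenylate synthetase-like gene of the antiviral response, stood at 12.3, 8.20, and 12.5 RPKM in *Stat5a* KI and at 4.19, 5.69, and 3.87 in *Stat5b* KI (-1.31 ± 0.18, adjusted p = 0.00010). Its WT levels also leaned that way, at 16.5, 21.5, and 22.0 RPKM for the *Stat5a* line and 12.7, 11.7, and 17.0 for the *Stat5b* line (-0.56, adjusted p = 0.18), and the difference between the contrasts was -0.75 ± 0.25 (adjusted p = 0.035), under 2-fold. *Oas2* was at -1.34 ± 0.27 (adjusted p = 0.0014) in KI cells and -0.73 (adjusted p = 0.23) in WT cells.

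Genes of resting T cells and of inhibitory receptors leaned higher in *Stat5b* KI. Of 30 quiescence and naive T cell genes, 1 (*Il7r*) was called higher, and 13 were higher and 2 lower at the adjusted p, with a median of 0.16 in KI cells and -0.17 in WT cells. Of 23 chemokine receptor and trafficking genes, 9 were higher and 0 lower, with none called and a median of 0.26. Of 20 inhibitory and costimulatory receptor genes, 3 were called higher and 0 lower, and 11 were higher and 5 lower at the adjusted p, with a median of 0.36. *Ctla4*, the inhibitory competitor of CD28, stood at 3.27, 2.16, and 2.15 RPKM in *Stat5a* KI and at 4.82, 5.88, and 6.78 in *Stat5b* KI (1.16 ± 0.20, adjusted p = 0.00041). The WT libraries stood at 3.66 to 5.69 RPKM, so that here it was *Stat5a* KI that lay below its WT libraries, while *Stat5b* KI overlapped its own. Of 6 CD4 and regulatory T cell markers 3 were also higher in *Stat5b* KI and 0 lower at the adjusted p. Among them *Foxp3*, chosen after its values were seen, stood at 2.10, 1.67, and 1.93 RPKM against 3.22, 3.61, and 3.96. The part of regulatory T cells in the *Ctla4* difference was not tested. *Havcr2*, which encodes the inhibitory receptor TIM-3, stood at 1.05, 0.779, and 0.549 RPKM against 2.41, 1.72, and 1.80 (1.26 ± 0.27, adjusted p = 0.0021), where both KI groups overlapped the 0.908 to 2.16 RPKM of WT cells. *Klrg1*, a marker of terminally differentiated cells, stood at 0.514, 0.398, and 0.439 RPKM against 1.79, 0.758, and 0.966 (1.31 ± 0.29, adjusted p = 0.0028), and at 0.90 without replicate 1 of *Stat5b* KI. A member that went the other way, chosen after its values were seen, was *Tnfrsf9*, the costimulatory receptor 4-1BB, at 24.9, 15.6, and 16.6 RPKM against 10.8, 9.92, and 9.94 (-0.95 ± 0.16, adjusted p = 0.00039).

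The remaining lists of T cell genes had few or no calls. Of 22 effector and memory transcription factors none was called, with 8 lower and 5 higher at the adjusted p, a median of 0.03, and *Id2*, which represses E proteins, at 0.52 ± 0.09 (adjusted p = 0.00038). Of 16 genes of the TCR complex and its signalling none was called, with 2 lower and 4 higher, a median of 0.05, and *Cd8b1*, the CD8 beta chain, at -0.15 ± 0.09 (adjusted p = 0.20). Of 23 AP-1, EGR, and early genes none was called, with 7 lower and 6 higher, a median of 0.06, and *Jund* at -0.58 ± 0.07 (adjusted p = 5.1e-05). Of 15 NK receptor genes found on CD8+ T cells 1 was called lower, with 4 lower and 0 higher and a median of -0.17. It was *Klra5*, at 0.798, 0.402, and 0.318 RPKM against 0.120, 0.205, and 0.306 (-1.29 ± 0.49, adjusted p = 0.049), groups that nearly touched, and the call was lost, at -0.84 to -1.42, without any 1 of the *Stat5a* line WT libraries, replicate 1 or 2 of *Stat5a* KI, 1 or 2 of *Stat5b* KI, or 1 of the *Stat5b* line WT. The call was also lost with replicate number as a block in the fit (-1.29) and with the transcript of most reads (-1.26).

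Outside the lists, the steepest falls among expressed genes whose KI libraries did not overlap were in a single locus on chromosome 2. *AA467197*, whose human counterpart encodes a small protein linked to mitochondrial complex IV, stood at 10.2, 18.1, and 16.1 RPKM in *Stat5a* KI and at 1.63, 2.38, and 1.45 in *Stat5b* KI (-3.08 ± 0.30, adjusted p = 9.8e-06), against 16.9 to 33.8 RPKM in WT cells. *Mir147* is the microRNA gene within *AA467197*, and its -3.20 ± 0.38 (adjusted p = 3.7e-05) shares that transcript, since reads from a microRNA precursor and its host cannot be told apart here. *Drc1*, a gene of the dynein regulatory complex of cilia, stood at 23.05, 31.0, and 27.3 RPKM in *Stat5a* KI, overlapping the 14.2 to 25.3 RPKM of WT cells, and at 5.09, 8.46, and 4.71 in *Stat5b* KI (-2.21 ± 0.22, adjusted p = 1.1e-05). *Prelid2* stood at 6.64, 7.47, and 6.59 RPKM against 2.26, 2.91, and 2.41 (-1.50 ± 0.14, adjusted p = 7.3e-06), and *Gpr34*, a lysophospholipid receptor gene, at 5.89, 5.20, and 4.90 RPKM against 1.65, 1.69, and 2.67 (-1.46 ± 0.19, adjusted p = 7.8e-05). The small nucleolar RNA gene *Snord68* stood at 5.57, 5.98, and 5.89 RPKM against 1.64, 2.65, and 2.71 (-1.35 ± 0.37, adjusted p = 0.011), and it was not called with 47 or 48 libraries in the fit. *Lars2*, the mitochondrial leucyl-tRNA synthetase gene, varied more, at 134.7, 246, and 245 RPKM against 93.2, 79.6, and 63.4 (-1.47 ± 0.28, adjusted p = 0.00098), and its WT groups also differed in mean (-0.64, adjusted p = 0.38), leaving -0.83 ± 0.39 (adjusted p = 0.12) between the contrasts. The rest of the 28 expressed genes called lower were *Atn1*, *Baiap2l1*, *Cdca7*, *Ddc*, *Mir6236*, *Myl10*, *Nt5dc2*, *Ppic*, *Rad54l*, *Snora68*, and *Snord37*.

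The steepest rises among expressed genes were mostly of genes of other blood cells. After *Gzmk* they were *Mir1954* (3.19 ± 0.51, adjusted p = 0.00028), 6 globin genes, the KRAB zinc finger gene *Zfp457*, and *Igj*, which encodes the joining chain of secreted antibodies. *Zfp457* stood at 1.98, 2.10, and 2.40 RPKM in *Stat5a* KI and at 9.28, 14.1, and 16.1 in *Stat5b* KI (2.56 ± 0.22, adjusted p = 5.0e-06), with 1.09 to 2.44 RPKM in WT cells. *Igj* stood at 14.1, 2.60, and 3.61 RPKM in *Stat5a* KI and at 40.7, 32.8, and 43.7 in *Stat5b* KI (2.49 ± 0.44, adjusted p = 0.00054), with at most 1.80 RPKM in WT cells. *Hba-a1*, an alpha globin gene, stood at 6.12, 4.68, and 5.03 RPKM in *Stat5a* KI and at 51.1, 29.2, and 45.1 in *Stat5b* KI (2.93 ± 0.20, adjusted p = 1.2e-06). *Hbb-b1*, a beta globin gene, stood at 6.85, 5.28, and 5.69 RPKM against 67.4, 34.4, and 51.7 (3.05 ± 0.22, adjusted p = 1.7e-06), and both globin genes stayed below 2.60 RPKM in every WT library. *Hba-a1* and *Hba-a2* had the same counts in all 12 libraries, as did *Hbb-b2* and *Hbb-bt*, and *Hbb-b1* and *Hbb-bs* in 6 libraries, so these 6 symbols stand for fewer measurements.

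Marker lists of other cell types were therefore followed in each library. The 7 erythroid markers tested included 6 called higher, and the list summed to 32.0, 26.5, and 27.2 RPKM in *Stat5a* KI and to 222, 124.03, and 183 in *Stat5b* KI, with 6.81 to 11.3 RPKM in WT cells. *Alas2*, of heme synthesis in red cells, was among them (3.81 ± 0.39, adjusted p = 1.2e-05). It stood at 0.0844, 0.0806, and 0.0420 RPKM in *Stat5a* KI and at 1.49, 0.669, and 0.909 in *Stat5b* KI. The *Stat5a* KI levels are traces, so the size of this fold change is not exact. *Slc4a1*, the band 3 anion exchanger, was another called marker, at 0.00734, 0.0140, and 0 RPKM in *Stat5a* KI and 0.229, 0.0439, and 0.163 in *Stat5b* KI. With a *Stat5a* KI library at 0, no exact fold change is given for it. Of 19 macrophage and monocyte markers 8 were called higher, with a median of 0.95 and sums of 139.5, 60.7, and 61.6 RPKM in *Stat5a* KI and 211, 143.03, and 183 in *Stat5b* KI, against 12.5 to 24.7 RPKM in WT cells. Replicate 1 of *Stat5a* KI, at 139.5 RPKM, thus lay close to the lowest *Stat5b* KI library. The markers named by the rule were *Trem2* (2.50 ± 0.47), *Hmox1* (1.88 ± 0.30), *Cd5l* (1.78 ± 0.39), and *Csf1r* (1.17 ± 0.38), the receptor of the growth factor CSF1, at adjusted p of 0.0013, 0.00030, 0.0028, and 0.026, and *Csf1r*, whose KI groups overlapped, lost its call, at 0.93 to 1.11, without replicate 2 or 3 of *Stat5a* KI or 1 or 3 of *Stat5b* KI. *Trem2* was at trace levels in *Stat5a* KI, 0.219, 0.223, and 0.0435 RPKM against 1.31, 0.602, and 0.987, so the size of its fold change is not exact. B cell markers were abundant in both KI groups, at 595, 485, and 527 RPKM in *Stat5a* KI and 753, 717, and 693.9 in *Stat5b* KI against 67.7 to 192 RPKM in WT cells, but none of the 13 tested was called (median 0.16), and *Cd74*, the most abundant, was at 0.39 ± 0.17 (adjusted p = 0.076). In WT cells the B cell median was -1.39, with sums of 192, 173, and 88.7 RPKM for the *Stat5a* line and 79.2, 67.7, and 93.9 for the *Stat5b* line. Without replicate 3 of the *Stat5a* line WT, 97 genes were called lower and 19 higher in the WT contrast, all 13 B cell markers among the former.

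The remaining lists were followed in the same way. Of 12 dendritic cell markers 2 were called higher, *Clec10a* (1.42 ± 0.34, adjusted p = 0.0048) and *Cd209a* (1.21 ± 0.33, adjusted p = 0.011, or 1.01 and not called without replicate 2 of *Stat5a* KI), with a median of 0.55 and 4 higher and 1 lower at the adjusted p. The list had sums of 140.2, 135.8, and 142.9 RPKM against 129.1, 134.997, and 121.7, most of it from *Bst2*, which is also on the list of interferon-stimulated genes. Without *Bst2* the sums were 50.7, 44.1, and 46.2 RPKM in *Stat5a* KI and 61.6, 57.5, and 60.9 in *Stat5b* KI, without overlap. Neutrophil markers summed to 1.86 to 2.36 RPKM against 2.95 to 4.55, with *S100a9* the 1 of 4 tested that was called. It stood at 0.0637, 0.152, and 0.0952 RPKM in *Stat5a* KI and at 0.714, 1.45, and 0.354 in *Stat5b* KI. The *Stat5a* KI levels are traces, so no exact fold change is given for it. CD4 and regulatory T cell markers summed to 15.6, 15.3, and 16.1 RPKM against 22.6, 22.7, and 22.6, with *Nrp1* the 1 of 6 called (1.47 ± 0.13, adjusted p = 5.6e-06). None of 9 NK cell markers was called, with sums of 110.97, 95.0, and 103 RPKM against 122.4, 114.4, and 95.2, and *Eomes* at 0.31 ± 0.12 (adjusted p = 0.059). The markers of CD8+ T cells were high in every library, at 2060, 2237, and 2076 RPKM in *Stat5a* KI and 2256, 2139, and 2013 in *Stat5b* KI, and none of the 8 was called (median -0.05). Of the 623 genes called higher 18 belong to the lists of other cell types, and of those called lower 0. These lists had 13 (B cell), 19 (macrophage), 4 (neutrophil), 12 (dendritic), 7 (erythroid), 9 (NK), and 6 (CD4) genes tested. Over all genes 4.51% were called higher and 0.782% lower, so with lists this small the 0 called lower does not set them apart. The part of these other cells in the genes called higher was not tested.

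**Figure D4:**
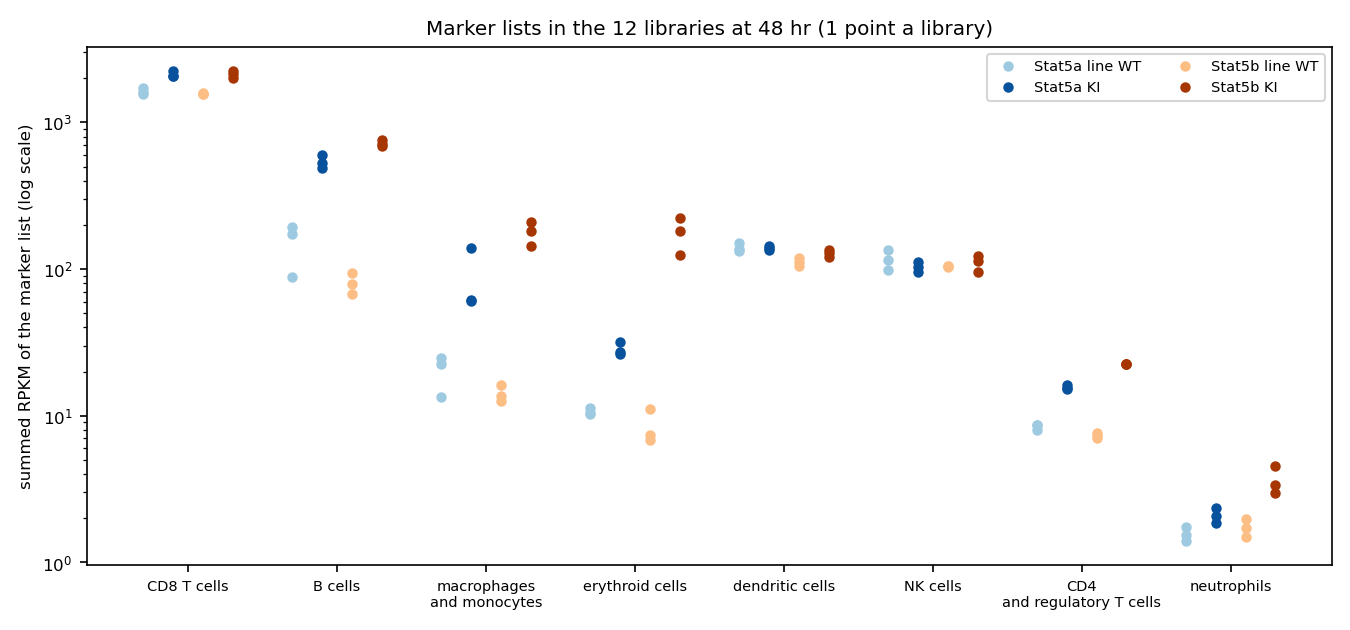
Summed RPKM of 8 marker lists (x axis) in the 12 libraries at 48 hr (y axis, log scale), with a point for each library. Erythroid and macrophage lists were lowest in WT cells, higher in *Stat5a* KI, and highest in *Stat5b* KI, B cell markers were high in both KI groups, and CD8+ T cell markers summed to at least 1549 RPKM in every library.

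A gene lower in *Stat5b* KI than in *Stat5a* KI can have been reduced in either line or raised in the other, so each of the 66 expressed called genes was set against the WT libraries of its own line. This describes genes that were chosen by the KI contrast and carries no test. Of the 28 genes called lower, 13 lay below WT in all libraries of both KI groups, among them *Cish*, *Osm*, *Bcl2l1*, *Gzmb*, *Il12rb2*, *Slc7a5*, and *Shmt1*. Another 11 overlapped WT in *Stat5a* KI and lay below WT only in *Stat5b* KI, among them *AA467197*, *Drc1*, *Gzmc*, *Slc30a4*, *Gpr34*, and *Lars2*. *Stat5a* KI lay above its WT libraries for 3 of the 28, which were *Atn1*, below WT in *Stat5b* KI, and *Ddc* and *Snord37*, overlapping WT there, and *Baiap2l1* overlapped WT in both KI groups. Of the 38 genes called higher, 22 lay above WT in both KI groups, among them *Il7r* and the globin genes, and 12 overlapped WT in *Stat5a* KI and lay above it in *Stat5b* KI, among them *Gzmk*, *Ccl5*, and the inflammatory caspase gene *Casp1*. *Stat5a* KI lay below its own WT libraries for 4 of the 38, which were *Ctla4*, *Gm13212*, *Gm4951*, and *Tyms-ps*. Over all 8025 expressed genes, 2950 (36.8%) lay below WT in both KI groups, 736 (9.17%) below WT only in *Stat5b* KI with overlap in *Stat5a* KI, and 1.48% below WT in *Stat5a* KI with overlap in *Stat5b* KI. In the other direction, 2454 (30.6%) lay above WT in both KI groups and 435 (5.42%) above WT only in *Stat5b* KI with overlap in *Stat5a* KI.

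The difference of the KI contrast from the WT contrast was called in 626 genes (4.53%), 515 (3.73%) of them higher and the rest (0.804%) lower. It shares all its libraries with the contrasts above and is given beside them, not as separate support. The genes called in KI cells had median log2 fold changes of -0.07 (lower) and 0.09 (higher) in WT cells. For genes described above it was -1.25 ± 0.16 for *Cish*, -1.34 ± 0.12 for *Osm*, -1.20 ± 0.22 for *Lif*, -1.11 ± 0.13 for *Bcl2l1*, -1.93 ± 0.24 for *Gzmb*, -3.40 ± 0.31 for *Mycn*, and 1.23 ± 0.21 for *Il7r*. It was smaller than the KI difference for *Ccl5* (0.76 against 1.21), *Gzmk* (1.83 against 3.28), and *Lars2* (-0.83 against -1.47). Marker genes of other cell types were among those called higher, with 11 of 13 B cell markers (median 1.56, against -1.39 for the WT contrast), 8 of 19 macrophage and monocyte markers (median 2.21), and 6 of 7 erythroid markers, and their part in this count was not tested. *Ncr1*, the NK receptor NKp46, was the expressed gene called between the WT groups, at 7.25, 5.37, and 2.96 RPKM in WT of the *Stat5a* line and 1.59, 1.84, and 2.17 in that of the *Stat5b* line (-1.50, adjusted p = 0.038), and it stood at -0.30 ± 0.23 (adjusted p = 0.33) in KI cells. The others called there, *Hspa12a* (lower) and *Ctcfl* (higher), had under 1 RPKM in WT cells. Since *Stat5a* and *Stat5b* lie side by side on chromosome 11 and both lines came from hybrid zygotes, calls were also counted by position for the 13712 genes with one. Within 10 Mb of *Stat5a* 13 of 256 genes (5.08%) were called in the KI contrast, on the rest of the chromosome 45 of 885 (5.08%), and elsewhere 668 of 12571 (5.31%), and in WT cells 0, 0, and 3 genes.

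GAS motifs were sought as the letters TTCNNNGAA, which read the same class of site on both strands, in the 250 bases before and 50 after the RefSeq start of each gene (GRCm38.p6). They were present in 7 of 75 promoters of genes called lower (9.33%), 35 of 454 of genes called higher (7.71%), and 898 of 10834 of all genes tested (8.29%). For expressed genes the counts were 5 of 17 called lower (29.4%) and 3 of 25 called higher (12%), and over all expressed genes 529 of 6449 (8.20%). A match is a description of letters and not a binding site, and genes without a promoter in the reference were left out. The matches are shown because several lie in genes whose levels are given above, with the motif in capitals and 10 bases on either side where the window held them, from 5′ to 3′ along the gene.
*Cish*, chr9:107296649-107296677 (plus strand): ccgcccagttTTCCTGGAAagttcttgga
*Cish*, chr9:107296660-107296688 (plus strand): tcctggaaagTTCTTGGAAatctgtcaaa
*Gzmb*, chr14:56262285-56262307 (minus strand): ggcaggagttTTCATAGAAagca
*Il12rb2*, chr6:67376293-67376321 (minus strand): gttcccttttTTCTCAGAAccgcactaag
*Cdca7*, chr2:72476000-72476028 (plus strand): acgccactgtTTCATAGAAcattcagcag
*Rad54l*, chr4:116123736-116123764 (minus strand): gagcgtcaagTTCACTGAAcgcagccaat
*Il7r*, chr15:9530000-9530028 (minus strand): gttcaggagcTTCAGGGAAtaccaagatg
*Zfp457*, chr13:67306501-67306529 (minus strand): cttcagtgggTTCCCGGAAgtccttccaa
*Usp17la*, chr7:104856832-104856860 (plus strand): tggagctaaaTTCAGGGAAatgcactcca
*Cish* held overlapping windows with a pair of matches at its start site, *Gzmb* a match 38 bases into its transcript, and the others single matches upstream of their start. *Cdca7*, a MYC and E2F target gene, was at -1.24 ± 0.08 (adjusted p = 7.8e-07) and *Rad54l*, a gene of recombination repair, at -1.04 ± 0.14 (adjusted p = 7.9e-05), and both were among the 28 expressed genes called lower.

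The KI contrast was also made in cells taken before culture, with libraries of 0 and 48 hr taken as unpaired. In a fit of the 24 libraries of both lines at 0 and 48 hr, the KI contrast at 0 hr called 88 genes lower (0.596%) and 356 higher (2.41%) of 14760 (3.01% in all), and the KI contrast at 48 hr 92 (0.623%) and 728 (4.93%, 5.56% in all). Of the genes called lower at 48 hr in the 12-library fit, 8 (7.41%) were also called lower and 5 higher at 0 hr, and of the 623 called higher, 93 (14.9%) were also called higher and 0 lower. The change of the KI contrast from 0 to 48 hr was called in 340 genes lower (2.30%) and 287 higher (1.94%), 4.25% in all. It was called in the same direction as the contrast at 48 hr for 44 (40.7%) of the genes called lower there and for 22.95% of those called higher, so for most of them a change from 0 hr was not called. The mitosis list went from a median of 0.72 at 0 hr, where 41 of 48 genes were higher in *Stat5b* KI at the adjusted p (9.62% of the 13784 genes tested at both times were higher there and 12.4% lower, 22.0% in all), to -0.64 at 48 hr, and its change was called lower in 36 of 48 genes. DNA replication genes went from 0.20 to -0.63, with the change called lower in 16 of 50, and the quiescence genes from -0.35 to 0.16. *Mki67* stood at 13.3, 6.27, and 5.88 RPKM at 0 hr in *Stat5a* KI and at 15.9, 17.2, and 15.5 in *Stat5b* KI, the reverse of its order at 48 hr.

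Single genes took different courses over these 48 hr. *Gzmb* began higher in *Stat5b* KI, at 5.14, 5.25, and 2.44 RPKM in *Stat5a* KI and 10.4, 8.80, and 9.45 in *Stat5b* KI (1.05 at 0 hr), and ended lower, with a change of -2.71 (adjusted p = 8.6e-05). *Osm* and *Bcl2l1* began level, at 0.03 and -0.05, and their changes were -1.34 (adjusted p = 4.0e-05) and -0.97 (adjusted p = 9.8e-05). *Il7r* was at -0.34 at 0 hr and changed by 1.41 (adjusted p = 0.00080). *Cish*, *Drc1*, *Gzmk*, and *Ccl5* already differed before culture, by -1.08, -2.43, 2.84, and 0.98, and their changes of -0.02, 0.24, 0.47, and 0.26 were not called (adjusted p = 0.98, 0.80, 0.72, and 0.57). *Drc1* stood at only 0.400 to 0.509 RPKM in *Stat5a* KI and 0.0483 to 0.159 in *Stat5b* KI at 0 hr, so its difference there is one between traces. Erythroid RNA was also present at 0 hr, with *Hba-a1* at 107.1, 59.8, and 39.2 RPKM in *Stat5a* KI and 264, 105, and 150.1 in *Stat5b* KI, and these groups overlapped. Of the 7 erythroid markers 5 were called higher in *Stat5b* KI at 0 hr and 0 lower (median 1.36), against the 2.41% of all genes given above, and of 4 neutrophil markers 3 were called higher.

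**Figure D5:**
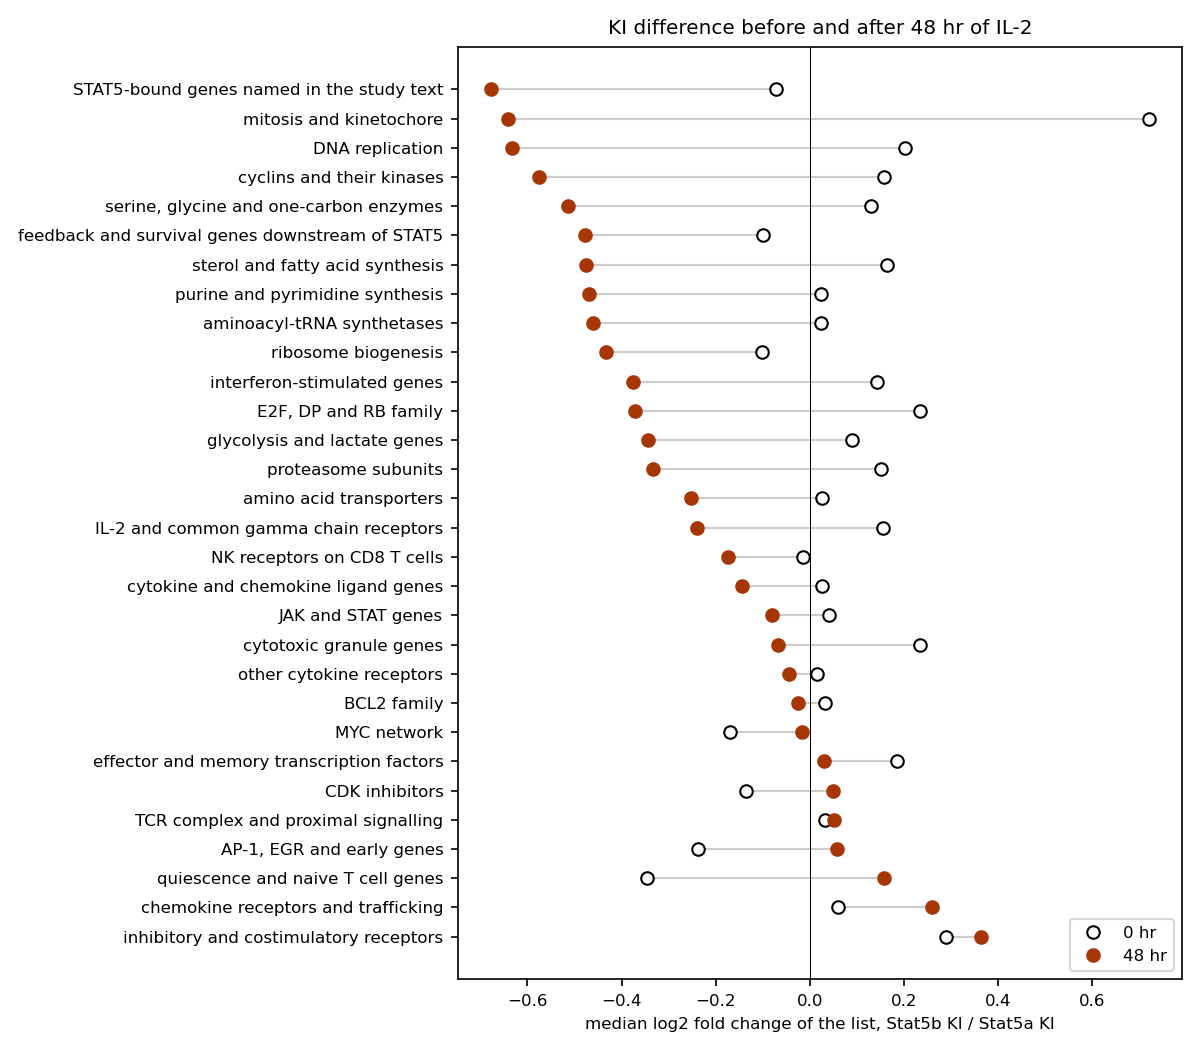
Median log2 fold change of *Stat5b* KI over *Stat5a* KI (x axis) for each of 30 gene lists (y axis) before IL-2 (open circles, 0 hr) and after 48 hr of IL-2 (filled circles), 3 libraries a group. The mitosis list moves from 0.72 to -0.64 and the DNA replication list from 0.20 to -0.63, while the quiescence list moves from -0.35 to 0.16.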

How the data were processed

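RNA was read as 50 bp single-end mRNA-seq. The authors aligned reads to mm10 with TopHat 2.0.11 and counted uniquely mapped reads over RefSeq exons, and the deposited tables hold raw counts and RPKM for each transcript. The submitters' processing notes also name Bowtie2 2.2.6, SAMtools 0.1.8, bedtools 2.25.0, and edgeR. Whether counting used strand is not given in the sources used here, so overlapping and antisense genes are uncertain.

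The longest of the 31682 transcripts was kept for each of 23992 symbols. Counts of 12 libraries in 4 groups were fitted with edgeR 4.0.16 (R 4.3.3) by the quasi-likelihood test after TMM scaling and filterByExpr (minimum count 10), with Benjamini-Hochberg adjustment over all genes tested. A call needed a 2-fold change and an adjusted p no higher than 0.05. The comparison of 0 and 48 hr used 24 libraries. The fit was tested on simulated data, and no result given here rests on that. Lists were described by counts and medians, with no set test.

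Named genes were *Stat5a* and *Stat5b*, the IL-2 receptor family, up to 4 called genes of each list with the largest change (or the best expressed member where none was called), the 10 largest falls and rises among called genes with at least 5 RPKM and libraries that did not overlap, and the 5 largest each way by the same rule in the WT and adjusted contrasts. The best expressed members of some lists are not reported here. The comparison, its lists, and its tests were chosen with earlier results of these data known. Alternatives used DESeq2 1.42.0, limma 3.58.1, other filters, other sets of libraries, and each library left out in turn. Figures were drawn with matplotlib 3.10.9.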

Additional observations from a re-analysis of the deposited data

Results flagged for a closer look

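The difference between the lines was not the same in KI and WT cells for 626 genes by the test of line by genotype, and the KI difference was not the same at 0 and 48 hr for 627 genes by the test of its change. Among called genes of at least 5 RPKM whose KI libraries did not overlap, the KI difference less the WT difference was lowest for *Mir147* (-2.90), *AA467197* (-2.70), *Gzmb* (-1.93), *Drc1* (-1.82), and *Gzmc* (-1.68) on the log2 scale. It was highest for *Hbb-b2* and *Hbb-bt* (3.49 each), *Hbb-b1* and *Hbb-bs* (3.46 each), and *Hba-a2* (3.07). It was also called for *Il9r* (2.27) and *Il7r* (1.23) of the IL-2 receptor family and for *Ncr1* (1.20), which was called between the WT groups. Other named genes were called too, among them *Mycn* (-3.40), with under 5 RPKM in KI cells, and *Gzmk* (1.83). The globin pairs share reads. Groups of 3 libraries are too small to test a single library as an outlier.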

How the results depend on the processing

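Of 1758 values of 78 named genes under 23 settings, 1660 kept their direction and their side of the threshold, 98 (of 29 genes) kept only the direction, and 0 reversed. Calls lost with all 48 libraries in the fit were those of *Ccl9*, *Cd209a*, *Cd5l*, *Cdkn2b*, *Clec10a*, *Csf1r*, *Gzmg*, *Klra5*, *Klrg1*, *Lars2*, *Lif*, *Mir1954*, *Oas2*, *Oasl2*, *Slc4a1*, *Slc7a8*, *Snord68*, *Trem2*, and *Zfp457*. Of these calls, only those of *Cd209a*, *Cdkn2b*, and *Snord68* were also lost with 47 libraries. Those of *Bcl2l1*, *Il12rb2*, *Orc1*, and *Slc7a5* were lost with only the 6 KI libraries, with both limma fits, and when genes had to reach 1 RPKM in 3 or more libraries. Both limma fits and the RPKM filter also lost *Klra5*, and limma on log2(RPKM + 1) lost *Ccl9*, *Ctla4*, *Havcr2*, *Mycn*, *Oas2*, and *Shmt1*. The share of tested genes called in the KI contrast, 5.29%, became 40.9% with no fold threshold. It was 1.20% with all 48 libraries in the fit and 3.51% with 47. The 48 included replicate 3 of *Stat5a* KI at 4 hr, with 1.03 M reads on the longest transcripts. When genes had to reach 1 RPKM in 3 or more libraries, an alternative chosen after seeing the data, the share was 1.79%. Limma on log2(RPKM + 1) and log2(RPKM + 0.1) gave 0.742% and 1.59%. Both limma fits tested as many genes as that filter left (10923), so test and filter changed together. The WT share, 0.0217%, became 0.210% with no fold threshold and 0.181% with edgeR and no filter on low counts. It was 0.233% with DESeq2, as a share of all genes with any read and not of those left by that method's own filter on mean count. It was 0 with 48, 47, or only the 6 libraries, with either limma fit, and with the replicate block, where 460, 879, 1693, 1100, 1145, and 1536 genes had an unadjusted p under 0.05. The adjusted share, 4.53%, became 28.7% with no fold threshold, 0.558% with 48 and 2.06% with 47 libraries, 0.998% and 2.47% with limma, and 2.85% with the RPKM filter. Leaving out 1 library gave 4.43 to 6.77% (KI), 0 to 0.823% (WT, highest without replicate 3 of the *Stat5a* line), 3.29 to 5.23% (adjusted), and 2.82 to 4.94% (change from 0 to 48 hr). With only 6 libraries the median of other cytokine receptors was 0.0052 and that of ribosome biogenesis -0.38. The median of the BCL2 family was 0.12 with DESeq2 and 0.10 with edgeR and no filter on low counts. With 1 library left out the medians ran from -0.060 to 0.0052 (other cytokine receptors), -0.33 to -0.0045 (ligands), and -0.45 to -0.38 (ribosome biogenesis). The cause of these shifts was not tested.

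Same-numbered KI libraries at 48 hr deviated together only weakly (correlations 0.0395, 0.0460, and 0.0960), so replicate numbers were not taken as pairs. These correlations were nevertheless above those of all other KI pairs, at -0.0585 to 0.0123. Such correlations were not examined between the 0 and 48 hr libraries of a group. With the replicate block 5.30% of genes were called in KI cells, 4.61% in the adjusted contrast, and 4.27% in the change from 0 to 48 hr. Among named genes the block ended the calls of *Cdkn2b* and *Klra5*. Most genes called higher lie below 1 RPKM and rest on few reads.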

Other observations

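*Baiap2l1*, chosen after its values were seen, had the largest fall of the expressed called genes but differed within *Stat5a* KI. It stood at 0.0257, 12.9, and 8.66 RPKM in *Stat5a* KI at 48 hr, and at no more than 0.0537 RPKM in the other 9 libraries. The same pattern was there at 0 hr, at 0.271, 9.04, and 7.49 RPKM in *Stat5a* KI and 0.115 to 0.146 RPKM in *Stat5b* KI. The fitted difference at 48 hr was -7.82 ± 1.40 (adjusted p = 0.00063), and the KI groups overlapped.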
